A study of Mus musculus with 9 samples.

Results

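Aminoacyl-tRNA synthetases join each amino acid to its transfer RNA and so supply the ribosome with charged tRNA. Mammalian cells hold a cytosolic and a mitochondrial set, both encoded in the nucleus, and the mitochondrial enzymes charge the tRNAs that mitochondrial DNA encodes. Transcription of many cytosolic synthetases is known to respond to amino acid shortage through the transcription factor ATF4. The genes described here are 36 of the 29915 rows of the count table: 20 cytosolic and 16 mitochondrial synthetases, chosen by gene symbol, with the suffix 2 marking the mitochondrial set. They were compared in mouse embryonic fibroblasts (MEFs, cells cultured from embryos) between 5 mutator libraries and 4 wild-type (WT) libraries. For the genotype, the labels name mutator and wild type and no allele; they state no treatment and describe 1 representative line per genotype, plated as technical replicates and harvested after 48 h. The stated purpose of the series was the expression of proteasome subunits. With 1 line per genotype the p-values measure the spread between replicate cultures, and the genotype cannot be told apart from whatever else differs between the 2 lines.

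Messenger RNA was selected by its poly(A) tail and sequenced. Total counts were 32045662 to 49511365 in the mutator libraries and 26341230 to 36238653 in the WT libraries, and each pair of replicates differed by more than sampling noise. The summed level of 10 fibroblast markers was 15635 to 16760 CPM (counts scaled to a common library size) in mutator and 8252 to 8685 CPM in WT, with 7 of the 10 averaging at least 1 CPM and Thy1, Dcn and Lum below that. The summed blood markers were at 3.69 to 4.57 CPM in mutator and 2.16 to 2.70 CPM in WT, with Cd3e at 0. Endothelial markers summed to 0.293 to 0.531 CPM in mutator and 0.685 to 1.2 CPM in WT, and epithelial markers to 0.120 to 0.346 CPM in mutator and 1.94 to 1.98 CPM in WT. Neuronal markers summed to 0 to 0.0244 CPM in mutator and 0 to 0.111 CPM in WT, with Snap25 at 0, and skeletal muscle markers to 0 to 0.0231 CPM in mutator and 0 to 0.0353 CPM in WT, with Myod1 at 0. The part of these marker differences in the results below was not tested. In bulk RNA, fewer cells of a type and less RNA per cell cannot be told apart.

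The cytosolic synthetases were mostly higher in mutator MEFs and the mitochondrial synthetases mostly lower. In edgeR's quasi-likelihood test over 13345 genes (threshold of 0.05 on the Benjamini-Hochberg adjusted p), 11 of 20 cytosolic genes rose, 6 fell and 3 did not pass. Of 16 mitochondrial genes 2 rose, 10 fell and 4 did not pass. These counts stand against a broad background, since 79.9% of all tested genes passed, 40.7% higher in mutator and 39.2% lower. The median log2 fold change (mutator over WT) was 0.24 for the cytosolic genes and -0.19 for the mitochondrial genes, a difference of 0.43, beside 0.01 for all tested genes. Relative to the median of each gene's chromosome, described further on, the mitochondrial genes split into 5 higher and 6 lower, and the difference was 0.24. The changes were small. The members' median absolute log2 fold change was 0.21, against 0.35 for all tested genes, and no member passed at 2-fold or more, whereas 17.8% of all tested genes did. The groups did not overlap for 17 cytosolic genes (11 higher and 6 lower in mutator) and 10 mitochondrial genes (2 higher and 8 lower), against 71.9% of all tested genes (36.4% higher, 35.5% lower).

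**Figure D1:**
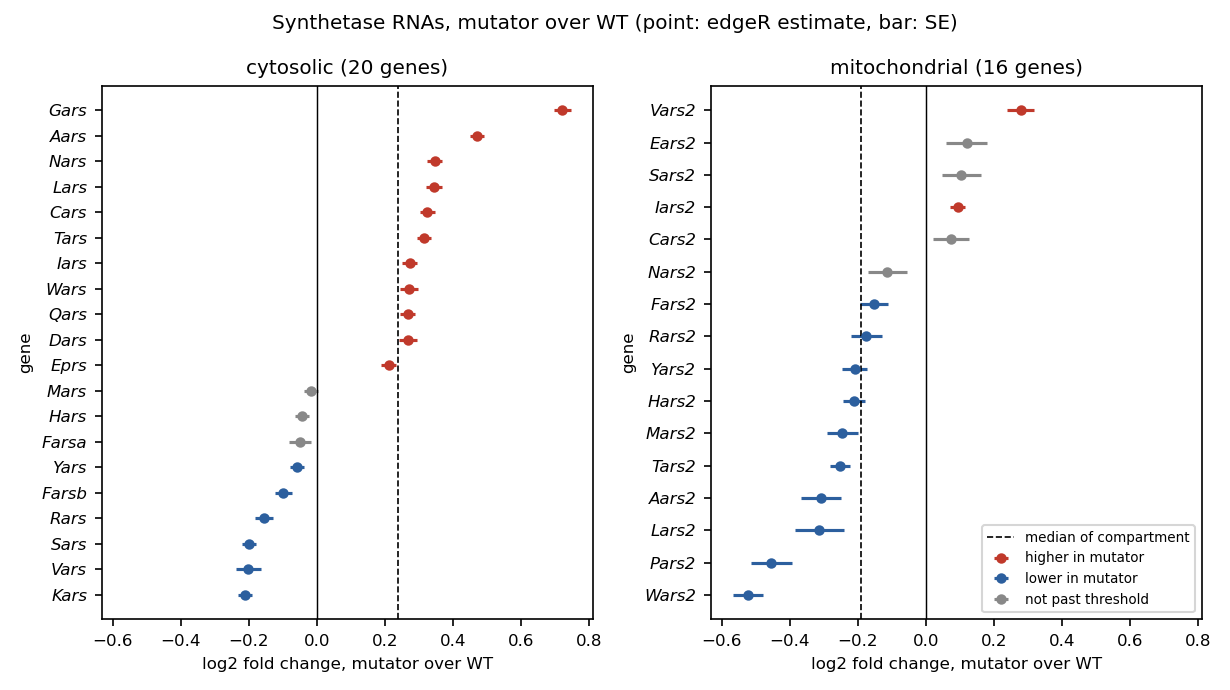
Log2 fold change of mutator over WT for the 20 cytosolic (left) and 16 mitochondrial (right) synthetase genes, on the horizontal axis, ordered by value, as points with the standard error as bars. The dashed lines are the medians of 0.24 and -0.19, and colour gives the result of the test (red higher, blue lower, grey not past the threshold).

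Gars, which encodes the glycyl-tRNA synthetase of both compartments, showed the largest change. The gene lies on GRCm38 chromosome 6, 55038007 to 55079500. Its level was 511, 512, 516, 491 and 508 CPM in the mutator libraries and 304, 317, 299 and 311 CPM in the WT libraries. All mutator libraries lay above all WT libraries, and the level was 1.65-fold higher in mutator (508 ± 9.95 CPM, SD, n = 5, against 308 ± 7.87 CPM, SD, n = 4; log2 fold change 0.72 ± 0.024, SE; edgeR adjusted p = 4.4e-15). Aars, the alanyl-tRNA synthetase on chromosome 8 (111033144 to 111057664), was next. It had 500.4, 509.9, 500.1, 516 and 514 CPM in mutator and 364, 363, 369.9 and 369 CPM in WT. Again the groups were apart, with a log2 fold change of 0.47 ± 0.021 (SE, edgeR adjusted p = 2.67e-13). The last 1326 bases of the Aars transcript are shared with Exosc6 on the same strand, so that reads there could belong to either gene.

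Nars, the asparaginyl-tRNA synthetase, had 643, 641, 638, 614 and 631 CPM in the mutator libraries and 493, 502, 494 and 504 CPM in the WT libraries. Lars, the leucyl-tRNA synthetase, had 308, 309, 317, 304 and 309 CPM in mutator and 243, 252, 236 and 244 CPM in WT. Both genes lie on chromosome 18, both were higher in every mutator library, and both had a log2 fold change of 0.35 (SE 0.021 and 0.023; edgeR adjusted p = 4.67e-11 and 1.63e-10). The other 7 that rose had log2 fold changes of 0.32 (Cars, cysteine), 0.31 (Tars, threonine), 0.27 (Iars, isoleucine; Wars, tryptophan; Qars, glutamine; Dars, aspartate) and 0.21 (Eprs, the fused enzyme for glutamate and proline). Their groups did not overlap. A pseudogene, Gm4849, matches 1656 bases of the Iars transcript at 96.0% identity, which could split its reads.

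Qars is of interest because mitochondria make glutaminyl-tRNA by converting misacylated tRNA and no separate mitochondrial enzyme is in the list. Its level was 169, 168, 162, 168 and 166 CPM in mutator and 138, 139, 136 and 142 CPM in WT (log2 fold change 0.27 ± 0.023, SE, edgeR adjusted p = 4.92e-09). On chromosome 9, where the median tested gene was at 0.40, this rise was smaller than that of the median gene, and relative to the chromosome median Qars was lower (-0.13, edgeR adjusted p = 4.23e-05).

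Kars, which encodes the lysyl-tRNA synthetase of both compartments, fell. It lies on chromosome 8, 111993443 to 112011323. The mutator libraries had 243, 247, 246, 248 and 251 CPM and the WT libraries 283, 283, 287 and 291 CPM. No library of either group reached the other, and the log2 fold change was -0.21 ± 0.020 (SE, edgeR adjusted p = 2.42e-08). Gars and Kars, the members whose products work in both compartments, thus changed in opposite directions.

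Vars (valine), Sars (serine) and Rars (arginine) also fell. Vars had 235, 247, 261, 277 and 261 CPM in mutator and 288, 289.8, 306 and 294 CPM in WT, with a log2 fold change of -0.20 ± 0.036 (SE, edgeR adjusted p = 6.04e-05). Its mutator libraries were the most spread of the cytosolic set, with an SD of 15.6 CPM, yet all lay below WT. Sars had 281, 288, 278, 283 and 287 CPM in mutator and 324, 318, 331 and 328 CPM in WT (-0.20 ± 0.021, SE, edgeR adjusted p = 8.87e-08), and lay at 0.53 relative to the median of chromosome 3. Rars had 211, 211, 213, 202 and 214 CPM in mutator and 235, 244, 230.2 and 226 CPM in WT (-0.16 ± 0.026, SE, edgeR adjusted p = 2.34e-05). The groups were apart for both. Smaller falls were seen for Farsb, the beta subunit of phenylalanyl-tRNA synthetase (-0.10), and Yars, for tyrosine (-0.06). Farsb did not pass with upper quartile scaling or with the robust GC and length trend described further on (0.033, edgeR adjusted p = 0.234). The last 250 bases of its transcript are shared with Sgpp2 on the opposite strand. Yars passed with an adjusted p of 0.0205 and missed the threshold without mutator replicate 1 (0.0574) or replicate 3 (0.0535), with upper quartile scaling (0.569) and with no (0.187) or a stricter filter on low counts (0.153).

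Mars (methionine), Hars (histidine) and Farsa, the alpha subunit of phenylalanyl-tRNA synthetase, did not pass. Their log2 fold changes were -0.02, -0.04 and -0.05, and their groups overlapped. Without WT replicate 4 Hars passed (-0.06, adjusted p = 0.0228), and without mutator replicate 4 Farsa passed (-0.07, adjusted p = 0.0359). Transcripts of Mars and Ddit3 overlap over 68 bases and those of Hars and Hars2 over 195 bases, on opposite strands. The strand setting of the authors' counting is not given in the sources used here, so reads in those stretches could not be assigned.

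**Figure D2:**
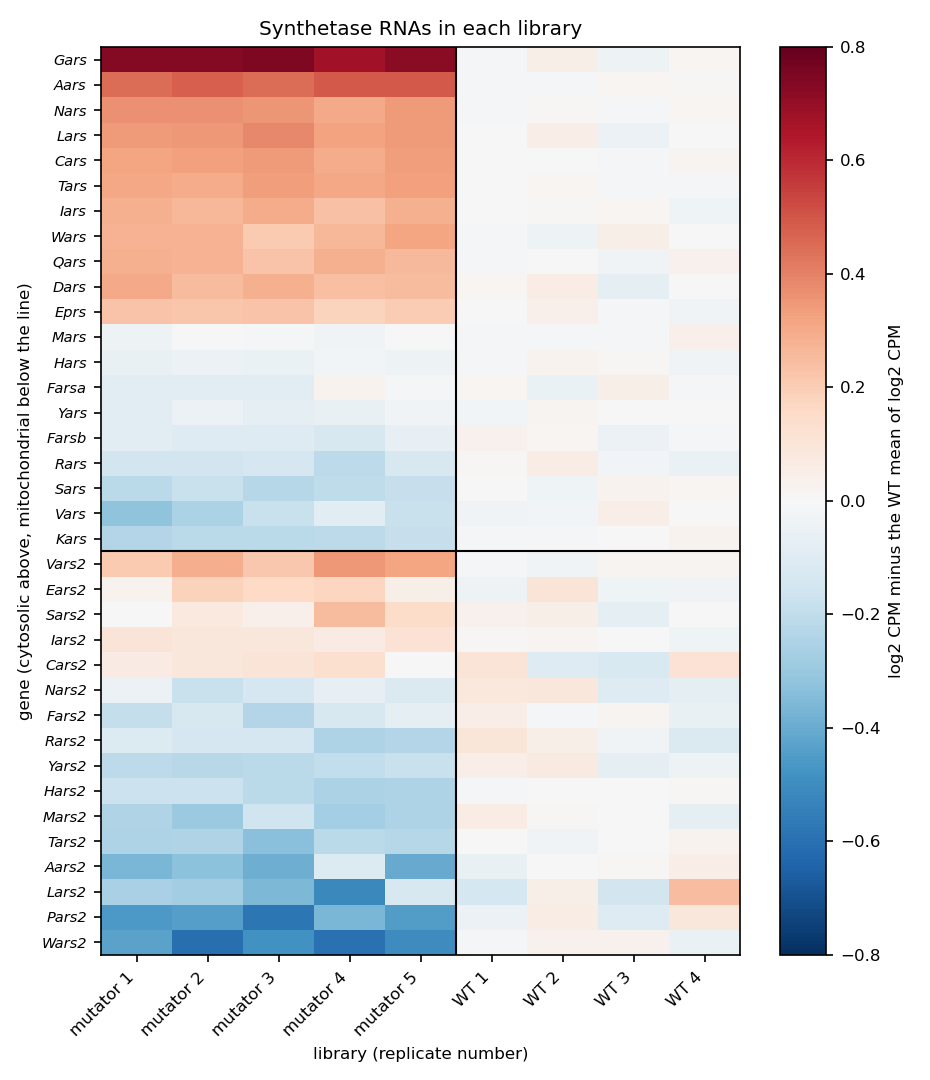
Heat map of log2 CPM minus the WT mean of log2 CPM, with 36 genes as rows (cytosolic above the line, mitochondrial below) and the 5 mutator and 4 WT libraries as columns. Red is above and blue below the WT mean; Gars is red in every mutator library and Wars2 blue in every mutator library.

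Summed over the set, cytosolic synthetase RNA was higher in mutator. The 20 genes came to 5574 ± 33.3 CPM (SD, n = 5) in mutator and 4891 ± 25.7 CPM (SD, n = 4) in WT, a ratio of 1.14. Of the 8 members whose enzymes sit in the multisynthetase complex, a cytosolic assembly held by scaffold proteins, Dars, Eprs, Iars, Lars and Qars rose, Kars and Rars fell and Mars did not pass (median log2 fold change 0.24). Among the 12 others 6 rose, 4 fell and 2 did not pass (median 0.11). The 2 structural classes of the enzymes, which differ in the fold of the catalytic domain, gave 5 rising and 3 falling of 9 class I genes and 5 rising and 3 falling of 10 class II genes, Eprs being both. Of the 3 scaffold genes, Aimp1 fell, with 70.4 ± 1.4 CPM (SD, n = 5) in mutator and 95.8 ± 3.45 CPM (SD, n = 4) in WT (log2 fold change -0.45 ± 0.029, SE, edgeR adjusted p = 1.12e-10). Relative to the median of chromosome 3, on which it lies, Aimp1 was higher (0.29). Aimp2 (0.06) and Eef1e1 (-0.07) did not pass.

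Mitochondrial synthetases were expressed at lower levels and moved mostly down. Wars2, the mitochondrial tryptophanyl-tRNA synthetase, fell most. It lies on chromosome 3, 99141068 to 99239186. Its level was 18.9, 16.8, 18.2, 16.9 and 18.0 CPM in the mutator libraries and 25.2, 26.1, 26.0 and 24.6 CPM in the WT libraries. That is 1.44-fold lower in mutator with no overlap (17.7 ± 0.927 CPM, SD, n = 5, against 25.5 ± 0.724 CPM, SD, n = 4; log2 fold change -0.52 ± 0.044, SE; edgeR adjusted p = 4.13e-09). Relative to the median of chromosome 3, Wars2 was higher in mutator (0.21). Pars2, for proline, had 7.61, 7.71, 7.01, 8.13 and 7.66 CPM in mutator and 10.1, 10.9, 9.74 and 11.1 CPM in WT (-0.45 ± 0.061, SE, edgeR adjusted p = 1.87e-06). Every mutator library was below every WT library.

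Lars2, for leucine, stood apart by its level and its spread. Its counts were 1188, 1171, 1109, 995 and 1299 CPM in mutator and 1289, 1468, 1284 and 1686 CPM in WT. The groups overlapped, because mutator replicate 5 lay above WT replicates 1 and 3, and the log2 fold change was -0.31 ± 0.072 (SE, edgeR adjusted p = 7.1e-04). Stretches of 97 and 72 bases near the end of the Lars2 transcript match the transcripts AA474408 and Gm15564 at 94.8% and 98.6% identity, and their part in the count was not tested. The mitochondrial set summed to 1647 ± 113 CPM (SD, n = 5) in mutator and 1951 ± 187 CPM (SD, n = 4) in WT. Without Lars2 the sums were 494 ± 3.23 CPM in mutator and 519 ± 6.61 CPM in WT, and the groups did not overlap.

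The other 7 that fell were Aars2 (-0.31), Tars2 and Mars2 (-0.25 each), Hars2 and Yars2 (-0.21 each), Rars2 (-0.17) and Fars2 (-0.15). Their groups were apart except for Rars2, which had 24.6 to 27.0 CPM in mutator and 27.0 to 31.2 CPM in WT. Only Vars2 and Iars2 rose among the 16. Vars2, for valine, had 25.4, 26.8, 25.5, 28.0 and 27.4 CPM in mutator and 21.7, 21.6, 22.3 and 22.3 CPM in WT (0.28 ± 0.040, SE, edgeR adjusted p = 4.93e-06). Iars2, for isoleucine, had 193, 192, 192, 188 and 195 CPM in mutator and 182, 183, 180.3 and 176 CPM in WT (0.09 ± 0.022, SE, edgeR adjusted p = 8.12e-04). Both were higher in every mutator library. The Iars2 transcript shares 2034 bases with Rab3gap2 on the opposite strand, and Vars2 shares 130 bases with an antisense transcript.

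Ears2 (glutamate, 0.12), Sars2 (serine, 0.10), Cars2 (cysteine, 0.07) and Nars2 (asparagine, -0.11) did not pass, and their groups overlapped. Transcripts on the opposite strand share 217 bases with Cars2 (Naxd), 284 with Nars2 (C230038L03Rik) and 89 with Ears2 (Ubfd1). Ears2 and Sars2 did pass without mutator replicate 1, which raised the count of rising mitochondrial genes to 4 (adjusted p = 0.0417 and 0.0448). Ears2 also passed without WT replicate 2 (0.0451), and Nars2 without WT replicate 3 (0.0268) or 4 (0.0403). Of the 7 mitochondrial class II genes none rose and 5 fell, and of the 9 class I genes 2 rose and 5 fell.

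The levels of the 2 sets differed by an order of magnitude when counts were divided by transcript length and scaled to the same sum over all genes with a length. The median cytosolic gene was at 205 in mutator and 174 in WT on this length-scaled level, and the median mitochondrial gene at 20.3 in mutator and 21.0 in WT. Nars was the highest cytosolic gene, at 582 ± 13 (SD, n = 5) in mutator and 447 ± 4.1 (SD, n = 4) in WT, followed in mutator by Gars (539 in mutator and 318 in WT) and Kars (311 in mutator and 351 in WT). In WT Kars was above Gars. The lowest cytosolic genes in mutator were Yars (124 ± 1.87 in mutator, 126 ± 1.64 in WT, SD) and Farsa (126 ± 4.56 in mutator, 127 ± 4.22 in WT, SD). For Farsa the groups differed by less than the SD of either group. Lars2 led the mitochondrial set at 747 in mutator and 904 in WT, far above Iars2 at 88.7 in mutator and 81.1 in WT. The part of reads from matching transcripts in this Lars2 level was not tested. Mars2, whose annotated transcript is 11294 bases long, was the lowest at 3.23 in mutator and 3.73 in WT.

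**Figure D3:**
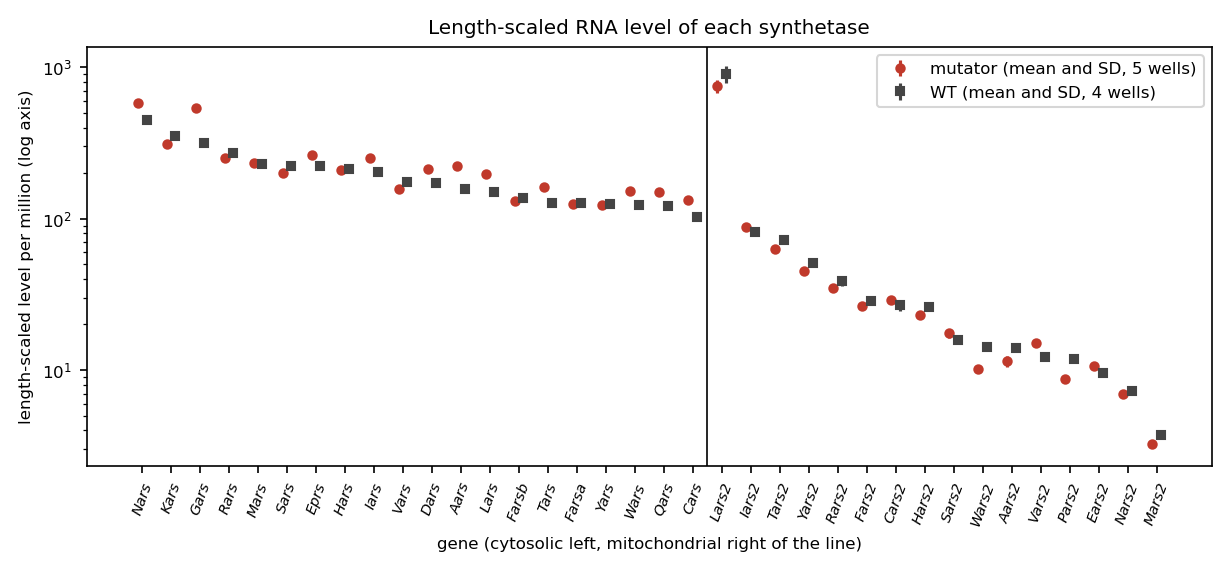
Length-scaled RNA level of each synthetase on a log axis, as mean and SD of 5 mutator (red circles) and 4 WT (grey squares) cultures, with cytosolic genes left and mitochondrial genes right of the line, each ordered by the WT mean. Apart from Lars2, at 747 in mutator, the mitochondrial genes lie below all cytosolic genes.

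Within each library the count of a cytosolic gene was divided by that of its mitochondrial counterpart, which cancels library size. Of 16 such pairs the ratio was higher in mutator for 12, lower for 2 and not different past the threshold for 2 (two-sided exact permutation test over the libraries, Benjamini-Hochberg over the 16 pairs, threshold 0.05). With 5 against 4 libraries the smallest p such a test can give is 0.00794. It became 0.00977 after adjustment because most of the 16 pairs reached it, and a pair alone at this p would not have passed. The calls of the pairs thus depend on each other, and Eprs stands in 2 of them. The share of called ratios among other pairs of genes is not given here, and 79.9% of all tested genes passed the gene test. The tryptophan pair Wars to Wars2 had a ratio of 5.87, 6.63, 5.80, 6.54 and 6.33 in the mutator libraries and 3.61, 3.41, 3.63 and 3.73 in the WT libraries. The alanine pair Aars to Aars2 had 34.0, 33.7, 34.6, 29.4 and 35.8 in mutator and 19.9, 19.2, 19.3 and 18.8 in WT. In both pairs the groups did not overlap, and the ratios differed by 0.79 on the log2 scale (SE 0.0481 and 0.0522; exact permutation adjusted p = 0.00977 each).

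Differences of 0.67 and 0.66 were found for proline (Eprs to Pars2) and leucine (Lars to Lars2), 0.57 for threonine and 0.45 for asparagine. The ratio for leucine was below 1 in both groups, 0.271 ± 0.026 (SD, n = 5) in mutator and 0.172 ± 0.0196 (SD, n = 4) in WT, since the Lars2 count was above that of Lars. Whether reads of the transcripts that match the end of Lars2 add to its count, and so to this ratio, was not tested. Cysteine (0.25), methionine (0.23), isoleucine (0.18), histidine (0.17) and tyrosine (0.15) followed, each at the smallest p the test can give. For phenylalanine (Farsa to Fars2) the difference was 0.10 and the groups overlapped (exact permutation adjusted p = 0.0272). This pair missed the threshold in 7 of the 9 tests that each left out 1 library (exact permutation adjusted p = 0.061 to 0.0653). The pair passed without WT replicate 4 or mutator replicate 2, and the difference stayed at 0.09 to 0.12 in all 9. With fewer libraries the smallest p of such a test is higher, 0.0179 without a WT library and 0.0286 without a mutator library. The pair also missed the threshold with Farsb in place of Farsa (exact permutation adjusted p = 0.229). Glutamate (Eprs to Ears2, 0.09) and arginine (0.02) did not pass (exact permutation adjusted p = 0.102 and 0.698). With each gene set against its chromosome median, the tryptophan (0.042, exact permutation adjusted p = 0.421) and phenylalanine (0.043, 0.237) differences did not pass, glutamate was higher in mutator (0.16, exact permutation adjusted p = 0.0181), threonine (-0.22) and arginine (-0.41) were lower in mutator, and 11 pairs were higher and 3 lower in all.

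Valine and serine ran the other way. Vars to Vars2 had a ratio of 9.27, 9.22, 10.2, 9.89 and 9.53 in mutator and 13.3, 13.4, 13.7 and 13.2 in WT, a difference of -0.48 ± 0.0315 (SE). Sars to Sars2 averaged 21.9 ± 1.39 (SD, n = 5) in mutator and 27.0 ± 1.52 (SD, n = 4) in WT, a difference of -0.30. Each was lower in all mutator libraries than in any WT library. Valine has both genes on chromosome 17, whereas the serine difference was 0.47 once each gene was set against its chromosome median. For valine both members passed the gene test in opposite directions, whereas for serine Sars fell and Sars2 did not pass.

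**Figure D4:**
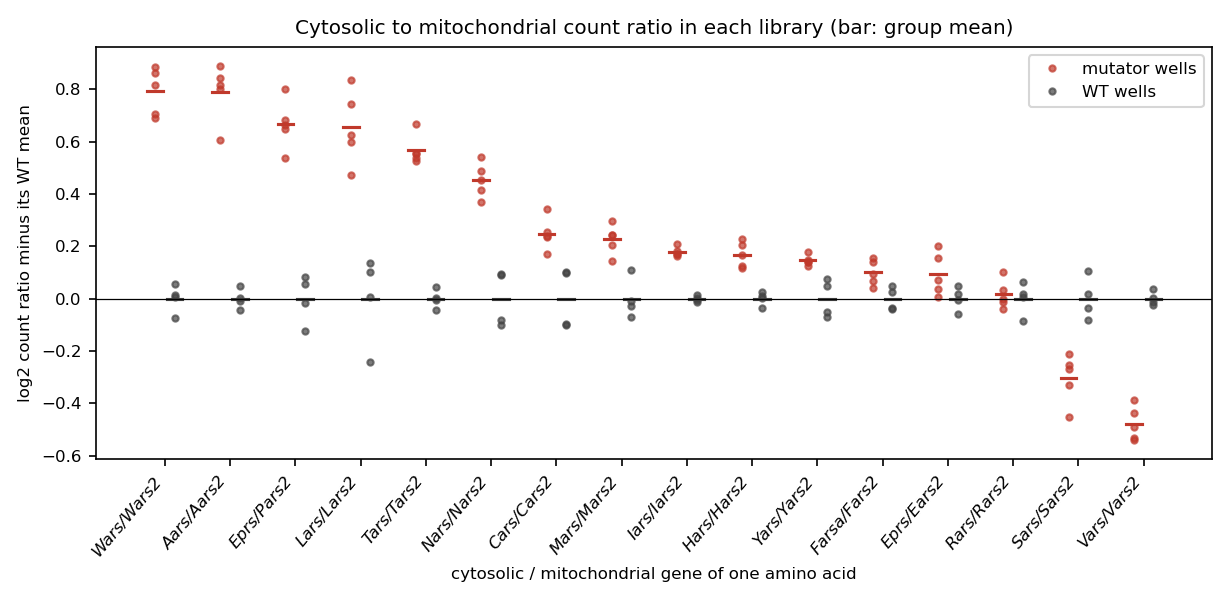
Log2 count ratio of the cytosolic to the mitochondrial gene of an amino acid in each library, minus the WT mean, for 16 pairs ordered by difference (mutator red and left, WT grey and right; bars are group means). The pairs run from a difference of 0.79 (Wars to Wars2) to -0.48 (Vars to Vars2).

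The members on chromosomes 3 and 4 changed in the direction of the median gene there. Lars2 (-0.31) on chromosome 9 and Vars2 (0.28) on chromosome 17 went against it, and Mars on chromosome 10 did not pass. The median log2 fold change of all tested genes was -0.73 on chromosome 3, which holds Sars, Tars2 and Wars2, and -0.36 on chromosome 4, which holds Yars, Pars2 and Rars2. It was -0.26 on chromosome 17 (Vars, Aars2 and Vars2), -0.21 on chromosome 10 (Mars) and 0.40 on chromosome 9 (Qars and Lars2). Set against the median of their chromosome in the same edgeR model, 13 cytosolic genes were higher, 6 lower and 1 did not pass, with a median of 0.23. Of the mitochondrial genes 5 were higher, 6 lower and 5 did not pass, with a median of -0.01. All tested genes were 38.9% higher and 39.0% lower on this measure. The difference between the compartments was then 0.24.

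Sars was at 0.53 relative to chromosome 3 (edgeR adjusted p = 9.88e-14), Tars2 at 0.48 and Wars2 at 0.21. The chromosome medians came from these same data and entered as fixed values. Adjusted p-values relative to them, for genes and for pair ratios, thus leave out the error of the median and the spread of genes along a chromosome. Yars (0.30), Mars (0.20) and Rars2 (0.18) were also higher relative to their chromosomes, Vars did not pass (0.06), and Pars2 (-0.10) and Aars2 (-0.05) did not pass. Lars2 moved the other way, to -0.71. Gars (0.59), Aars (0.43), Nars and Lars (0.23 each) kept their direction. A change shared along a chromosome and a change of the gene itself cannot be told apart here with 1 line per genotype.

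**Figure D5:**
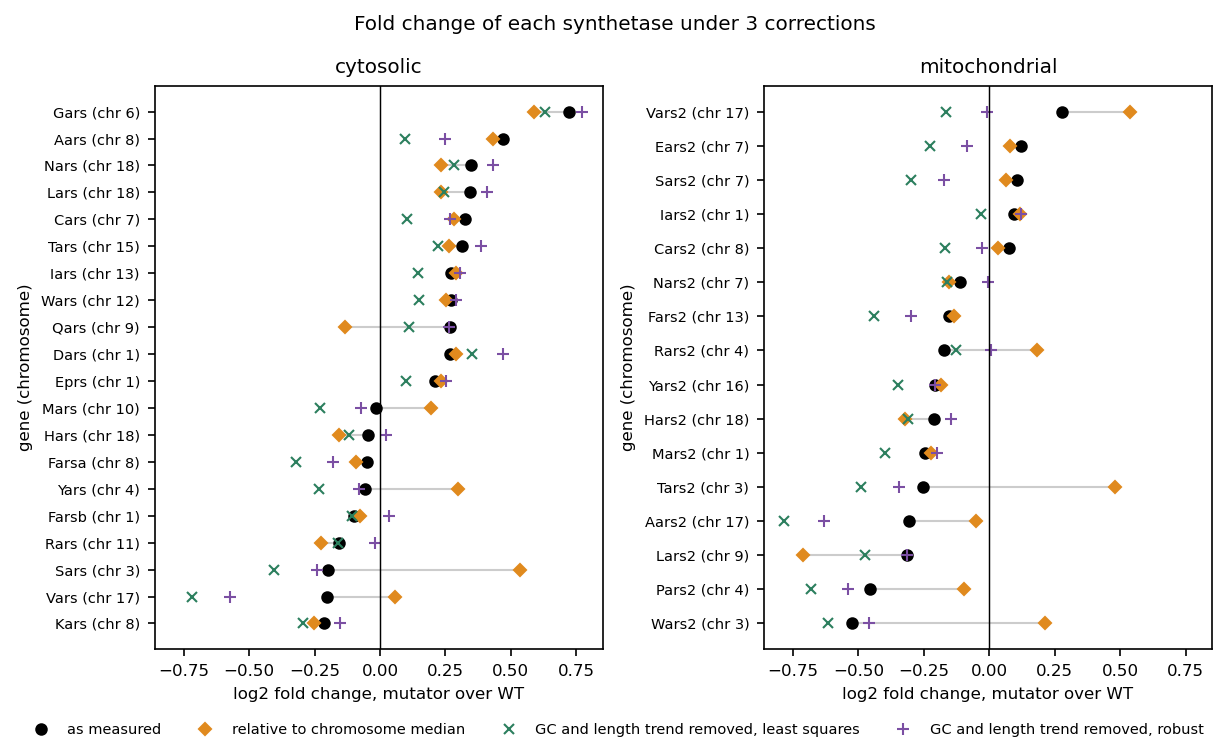
Log2 fold change of each synthetase (chromosome in brackets) as measured (black circles), relative to the median of its chromosome (orange diamonds) and with the trend on GC content and transcript length removed by a least-squares (green crosses) or a robust fit (purple plus signs). Gars stays right of 0 throughout, while Sars is at -0.20 as measured and at 0.53 relative to chromosome 3.

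A trend of the fold change on GC content and transcript length was also removed. A least-squares trend moved the median of all genes to -0.13 and gave 11 higher and 9 lower cytosolic genes and 0 higher and 15 lower mitochondrial genes, against 30.8% higher and 50.5% lower of all genes. The median log2 fold changes were 0.10 and -0.33, again 0.42 apart. A robust trend that kept the median of all genes gave 11 higher and 6 lower cytosolic genes and 1 higher and 10 lower mitochondrial genes, against 40.6% and 38.6% of all genes. Aars kept its rise at 0.09 with the least-squares trend and 0.25 with the robust trend, Vars lay at -0.72 and -0.57 and Aars2 at -0.78 and -0.63, and Rars did not pass with the robust trend (-0.02). Vars2 lost its rise under both (-0.17 and -0.01), and Iars2 under the least-squares trend (-0.03, adjusted p = 0.203).

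Across all 18 settings tried, 10 cytosolic genes rose in every setting: Aars, Cars, Dars, Eprs, Gars, Iars, Lars, Nars, Tars and Wars. Kars was the only cytosolic gene that fell in every setting. On the mitochondrial side Fars2, Hars2, Lars2, Mars2 and Yars2 fell in every setting and none rose in all. No setting removed reads of transcripts that match the end of Lars2. Of all tested genes, 25.9% rose and 27.3% fell in every setting that tested them.

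Genes of the amino acid response, which ATF4 is known to switch on together with several cytosolic synthetases, were higher as well. All 15 on the list rose (median log2 fold change 0.84), against 40.7% of all tested genes. Atf4 itself had 397, 396, 410.3, 404 and 412 CPM in mutator and 277, 282, 273 and 288 CPM in WT (0.53 ± 0.023, SE, edgeR adjusted p = 2.74e-13). Asns, the asparagine synthetase, was at 303 ± 7.12 CPM (SD, n = 5) in mutator and 152 ± 3.81 CPM (SD, n = 4) in WT, a log2 fold change of 1.00. Trib3, a pseudokinase induced in this response, was at 51.1 ± 3.45 CPM (SD, n = 5) in mutator and 11.4 ± 0.711 CPM (SD, n = 4) in WT (2.16), and Slc7a11, a cystine transporter, was at 2.57. With the least-squares GC and length trend removed, 11 of the 15 rose, 1 fell and 3 did not pass. Of all tested genes 30.8% were higher and 50.5% lower there. This list was drawn up with earlier results of these data known, and its direction is no independent evidence for that of the synthetases.

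The C/EBP-ATF response element, through which ATF4 acts, has the core TGATGNAA. It was looked for on both strands in RefSeq promoter windows of 300 bases (GRCm38.p6, 250 before to 50 after the gene start, the start base counted as 1). A window at the gene's own annotated locus was found for 13 cytosolic and 14 mitochondrial members. The letters occurred in 5 cytosolic windows (Aars, Gars, Iars, Tars and Yars) and in 0 mitochondrial windows, against 2.64% of 9896 tested genes with a window and 3.97% of all 32851 windows. At a share of 2.64%, a set of 14 windows would mostly hold 0 matches, so the mitochondrial count is near that of all tested genes. Of the rising cytosolic genes with a window 4 of 7 held the letters, of the falling ones 1 of 4 (Yars), and of those that did not pass 0 of 2. Cars, Lars, Nars and Wars, which also rose, had no window and are left out of this share, as are Hars, Rars and Vars. A match is a description of the sequence, and factor binding was not measured. In the amino acid response list 4 of 14 held them (Asns, Chac1, Slc7a11 and Trib3). The windows of Gars and Aars, which rose most, are shown with the match in capitals (read on the opposite strand), followed by those of Kars and Wars2, which fell most in their sets and hold no match. They lie at chr6:55037751-55038050 (Gars, plus strand), chr8:111033592-111033891 (Aars, plus), chr8:112011305-112011604 (Kars, minus) and chr3:99140840-99141139 (Wars2, plus).
Gars: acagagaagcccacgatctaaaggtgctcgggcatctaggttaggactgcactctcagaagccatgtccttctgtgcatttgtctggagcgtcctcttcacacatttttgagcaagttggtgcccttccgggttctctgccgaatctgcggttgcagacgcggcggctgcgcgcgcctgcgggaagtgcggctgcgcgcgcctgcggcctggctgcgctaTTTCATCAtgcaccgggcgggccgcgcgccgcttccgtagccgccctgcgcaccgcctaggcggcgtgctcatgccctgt
Aars: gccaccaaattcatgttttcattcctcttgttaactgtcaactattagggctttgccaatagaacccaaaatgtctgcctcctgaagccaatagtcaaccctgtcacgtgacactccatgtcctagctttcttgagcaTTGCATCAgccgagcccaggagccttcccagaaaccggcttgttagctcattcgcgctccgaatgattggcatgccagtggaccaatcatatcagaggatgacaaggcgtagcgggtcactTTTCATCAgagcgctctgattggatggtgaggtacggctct
Kars: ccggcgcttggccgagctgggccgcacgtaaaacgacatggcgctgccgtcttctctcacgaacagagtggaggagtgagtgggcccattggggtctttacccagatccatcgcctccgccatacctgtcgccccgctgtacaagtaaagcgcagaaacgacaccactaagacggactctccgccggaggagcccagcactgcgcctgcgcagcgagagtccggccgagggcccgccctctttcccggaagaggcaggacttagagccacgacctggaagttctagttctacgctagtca
Wars2: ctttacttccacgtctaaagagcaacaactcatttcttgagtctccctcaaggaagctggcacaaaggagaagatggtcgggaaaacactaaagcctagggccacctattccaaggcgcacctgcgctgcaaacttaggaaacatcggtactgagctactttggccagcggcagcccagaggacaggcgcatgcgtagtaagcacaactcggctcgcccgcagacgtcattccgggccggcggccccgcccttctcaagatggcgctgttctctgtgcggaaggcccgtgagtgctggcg

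In Gars the match lay 30 to 23 bases before the start. Aars held it at 112 to 105 bases before the RefSeq start and again at bases 10 to 17. The Aars window lies inside the gene locus given above, so this start is not the start of that locus. For the other members with a match, 40 bases around it are shown to compare its flanks; it spans bases 8 to 15 in Iars (window chr13:49681880-49682179, plus strand), lies 15 to 8 bases before the start in Tars (chr15:11399609-11399908, minus strand) and spans bases 4 to 11 in Yars (chr4:129189653-129189952, plus strand), where it reads forward.
Iars: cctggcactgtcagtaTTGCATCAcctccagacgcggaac
Tars: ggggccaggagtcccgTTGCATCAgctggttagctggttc
Yars: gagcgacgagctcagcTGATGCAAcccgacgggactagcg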

How the data were processed

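The table of raw counts per gene was made by the authors and deposited with the series. The submitters' processing notes name STAR 2.4.2a, HTSeq and the build mm10. Which annotation and strand setting were used, and how reads with several matches were counted, is not given in the sources used here. Per the labels' protocols, RNA was poly(A)-selected and libraries were strand-specific and read as 150 bp pairs. Columns were assigned through the sample descriptions; another 5, which correspond to no sample, were left out. No row lacked a gene name.

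Here edgeR 4.0.16 in R 4.3.3 was run on the whole table (filterByExpr by group, TMM scaling, quasi-likelihood F test, mutator against WT, no other term), with Benjamini-Hochberg adjustment over 13345 genes and a threshold of 0.05. Each standard error (SE) is the absolute log2 fold change over the root of F. CPM use TMM-scaled library sizes. Length-scaled levels use GENCODE M21 transcripts on GRCm38. Pair ratios add 0.5 to each count and were tested by exact permutation in Python 3.11.15. Promoter windows were matched by symbol and kept on the gene's chromosome and strand, within 1000 bases of the annotated gene. Medians of lists are descriptions without a test. Total counts per library set the precision, and reads lacked molecular identifiers, so counting error is a lower limit of the error. The fit was tested on simulated counts with 200 changed genes and the same extra spread for every gene. It recovered 83% of the 1.5-fold and 68% of the 1.2-fold changes, with 10 false calls. Far more genes passed in the data (79.9%), so the simulated setting differs from them. Alternatives were DESeq2 1.42.0, upper quartile scaling, other filters, the replicate number as a block, leaving out each library, chromosome medians (at least 50 genes) and GC content with length, known for 93.4% of tested genes, as offsets.

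The members and lists, the settings and the grouping by complex and class were chosen with earlier results of these data known. The first GC and length trend, by least squares, shifted the median of all genes. A robust trend that keeps that median and the compartment difference without Lars2 were added after this was seen, and both trends are reported. Per-library values are given for the 4 highest and 4 lowest changes among called cytosolic members, the 3 highest and 3 lowest among called mitochondrial members, where 2 rose, and Gars, Kars and Qars. Context genes named are Atf4, Aimp1, Aimp2, Eef1e1, Asns, Trib3 and Polg and, per list, the 2 largest changes that passed among genes averaging 1 CPM or more. Dtd2, Gatb and Map2 were not matched by symbol and are not analysed here.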

Additional observations from a re-analysis of the deposited data

Results flagged for a closer look

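Among 104 groups of libraries (the CPM of each member and the ratio of each pair, in mutator and in WT), 7 held a library whose gap to the nearest other library exceeded Dixon's 95% critical value, where chance gives about 1 in 20 groups. In mutator replicate 4, Rars was low at 201.7 CPM, with the other mutator libraries at 210.8 to 214 CPM, and Aars2 was high at 17.6 CPM, with the others at 14.4 to 15.1 CPM. In mutator replicate 3, Tars2 was low at 56.4 CPM, against 59.9 to 61.0 CPM in the others, and the Tars to Tars2 ratio was high at 4.63, against 4.20 to 4.29. In the WT group, Mars was high in replicate 4 at 280.2 CPM, the others lying at 269.6 to 271 CPM. Ears2 was high in WT replicate 2 at 8.59 CPM, the others lying at 7.77 to 7.85 CPM. Hars2 was low in WT replicate 1 at 35.0 CPM, the others lying at 35.6 to 35.7 CPM. Without these libraries the calls of Rars, Aars2, Tars2, Mars and Hars2 did not change, while Ears2 passed without WT replicate 2 (0.15, edgeR adjusted p = 0.0451).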

How the results depend on the processing

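With 1 line per genotype and cultures as technical replicates, no setting speaks to other lines. No member changed its call under DESeq2 or with the replicate block. The replicate numbers did not pair the samples: libraries with the same number correlated at -0.08 to 0.03 in their deviations from the group means, and with the block 11 cytosolic genes still rose. Relative to the chromosome median 5 mitochondrial genes rose and 6 fell, and the compartment difference was 0.24. Signs turned there for Mars (0.20), Qars (-0.13), Sars (0.53), Vars (0.058), Yars (0.30), Rars2 (0.18), Tars2 (0.48), Wars2 (0.21), Aimp1 (0.29) and Eef1a1 (-0.17), and for the pair differences of arginine (-0.41), serine (0.47) and threonine (-0.22). With the least-squares GC and length trend 0 mitochondrial genes rose, and signs turned for Cars2 (-0.17), Ears2 (-0.22), Iars2 (-0.030), Sars2 (-0.30), Vars2 (-0.17) and Polg (-0.20). With the robust trend 1 rose, and among genes past the threshold in either fit signs turned for Farsb (0.033), Rars2 (0.0059), Sars2 (-0.17), Vars2 (-0.0097), Eef1e1 (0.081) and Polg (-0.022); Hars (0.022), Cars2 (-0.028) and Ears2 (-0.085), past it in neither, also turned. Upper quartile scaling gave 5 rising mitochondrial genes, adding Cars2, Ears2 and Sars2, and ended the fall of Farsb and Yars. Leaving out each library in turn gave 2 to 4 rising mitochondrial genes, the 4 without mutator replicate 1, and compartment differences of 0.40 to 0.44; without Lars2 the difference was 0.41. Pairs with a higher ratio in mutator numbered 11 or 12 in every setting run, and 11 with Farsb in place of Farsa; of the calls, only that of phenylalanine was lost when 1 library was left out (7 of 9 tests). The cause of these shifts was not tested.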

Other observations

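Factors that work beside the synthetases moved in both directions, where 40.7% of all tested genes were higher in mutator and 39.2% lower. Of 5 cytosolic elongation genes 3 rose, 1 fell and 1 did not pass (median log2 fold change 0.14). Eef1a1, the factor that brings charged tRNA to the ribosome, was at 9776 ± 330 CPM (SD, n = 5) in mutator and 8317 ± 180.4 CPM (SD, n = 4) in WT (0.23), and lay at -0.17 relative to the median of chromosome 9. Eef1g, a subunit of its exchange factor, was at 0.20. Of 3 tested genes that clear mischarged tRNA, Aarsd1 rose (0.35), Prorsd1 rose (0.18) and 1 did not pass. Of 3 selenocysteine genes, Sephs2, which makes selenophosphate, fell (-0.30) and the other 2 did not pass. The 4 kinases that phosphorylate eIF2alpha all fell (median -0.14), Eif2ak2 most, with 130.3 ± 6.68 CPM (SD, n = 5) in mutator and 244 ± 9.43 CPM (SD, n = 4) in WT (-0.90 ± 0.034, SE, edgeR adjusted p = 3.39e-14), and Eif2ak1 by -0.18.

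Mitochondrial translation genes outside the synthetases moved in both directions, with falls in 5 of 11 and 5 of 9, beside 39.2% lower of all tested genes. Of 11 tested genes for mitochondrial charging and tRNA modification 2 rose, 5 fell and 4 did not pass (median -0.11), with Trit1, which modifies the anticodon loop, at -0.63 and Osgepl1 at -0.50. Relative to the chromosome medians 1 of these rose and 7 fell. Of 9 mitochondrial translation factors 2 rose, 5 fell and 2 did not pass (median -0.13). Gfm1, the mitochondrial elongation factor G on chromosome 3, was at 70.4, 68.7, 69.8, 67.5 and 71.3 CPM in mutator and 135, 134, 129 and 129 CPM in WT (-0.92 ± 0.026, SE, edgeR adjusted p = 5.78e-16), and at -0.19 relative to the median of its chromosome. Mtrf1l, a release factor, was at -0.49. Relative to the chromosome medians 3 of the factors rose and 6 fell. Mtfmt, the formyltransferase of the initiator tRNA, and Mrrf, the ribosome recycling factor, named here after their values were seen, turned from higher (0.21 and 0.13) to lower relative to the median of their chromosome (-0.19 each, edgeR adjusted p = 0.0011 and 8.07e-04). Polg, the mitochondrial DNA polymerase, was at 102 ± 1.89 CPM (SD, n = 5) in mutator and 95.9 ± 2.49 CPM (SD, n = 4) in WT (0.09, edgeR adjusted p = 0.00331).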
